A study of Mus musculus with 4 samples.

Results

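Calpains are cysteine proteases that are switched on by calcium and cut their substrates at a limited number of sites rather than degrading them. The classical forms, mu-calpain and m-calpain, pair a catalytic subunit (Capn1 or Capn2) with a shared regulatory subunit (Capns1), and calpastatin, the product of Cast, inhibits them. In neurons they are known for the calcium-dependent cleavage of spectrin, tau and other cytoskeletal and synaptic proteins. Other family members lack the calcium-binding domain of the classical enzymes, or are known mainly from single tissues, such as Capn3 in skeletal muscle and Capn11 in testis.

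The calpain family was measured here by RNA-seq of mouse cerebellum at postnatal day 14. The 9 genes Capn1, Capn2, Capn3, Capn5, Capn7, Capn10, Capn11, Capn15 and Capns1 were taken by symbol from 55341 genes counted in each library. The family was chosen by the measured values of Capn11, whose level was strongly higher in one group, so the difference between genotypes in these 9 genes is given as a description, without a p-value. The groups were 2 libraries of WT mice, which were Kdm6b fl/fl without Cre, and 2 libraries of Kdm6b-cKO mice, which were Atoh1-Cre; Kdm6b fl/fl littermates, and each library came from the cerebellum of 1 mouse. Both groups thus carried the floxed alleles of Kdm6b, which encodes a demethylase of lysine 27 of histone H3, and the floxed exons are those of its catalytic domain. Cre was driven by Atoh1, a gene of granule neuron precursors, while the RNA came from the whole tissue with all its cell types, so in every result below a change in the number of cells of a type and a change in RNA per cell cannot be told apart.

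The libraries held 8811849 to 9892363 counts in genes. Levels are given as CPM, counts divided by library size after TMM scaling. The 7 granule neuron markers, which check the tissue label, summed to 5424 to 6161 CPM per library. Kdm6b, counted over exons inside and outside the floxed part, measured 154 CPM in both WT libraries and 126 and 119 CPM in the cKO libraries (log2 fold change −0.33, SE 0.076). Its edgeR adjusted p was 0.0162, and without any 1 of the libraries the log2 fold change stayed between −0.37 and −0.28 while the call was lost (0.111 to 0.493). WT 1 had 4 counts of Xist and 654 of the Y-linked gene Ddx3y, while the other libraries had 12588 to 14272 and at most 1, so sex was partly confounded with genotype and the values without WT 1 are given where a result turns on it. Choroid plexus RNA stood out in cKO 1, with 608 CPM of Ttr against 0.108 to 13.9 CPM in the other libraries.

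Capn11 (ENSMUSG00000058626.16) is encoded on GRCm38 chromosome 17, minus strand, from 45630204 to 45659325. Its 23 exonic blocks cover 2708 bp. None of this exon sequence is shared with another annotated gene, and 0 of the 2758 stretches of 100 bp in its transcripts occur in a transcript of any other gene. In the GENCODE M21 annotation Capn11 thus has neither an overlapping gene nor an identical stretch of 100 bp in a transcript of another gene. Copies with scattered mismatches were not searched for. Parts of other members do overlap other genes. The largest overlap was that of Capn2, which shares 1717 of 6345 exon bp with the antisense gene Gm37885. It was followed by Capn15 with 1119 of 5729 bp, mostly with D630044L22Rik, and by Capn10 with 639 of 4346 bp shared with 9430060I03Rik, all on the opposite strand. The strand setting of the counting is not given in the sources used here, so reads on these stretches cannot be assigned to one strand.

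The sequences just upstream of Capn11, Capn2 and Slc29a1, a gene near Capn11 whose values follow further on, differ in their number of CG dinucleotides. They are printed 5′ to 3′ on the minus strand, from RefSeq on GRCm38.p6, with CG dinucleotides in capitals. The Capn11 sequence is chr17:45659326-45659559, that of Slc29a1 chr17:45599619-45599868 and that of Capn2, shown as a broadly expressed member, chr1:182517611-182517860.
Capn11: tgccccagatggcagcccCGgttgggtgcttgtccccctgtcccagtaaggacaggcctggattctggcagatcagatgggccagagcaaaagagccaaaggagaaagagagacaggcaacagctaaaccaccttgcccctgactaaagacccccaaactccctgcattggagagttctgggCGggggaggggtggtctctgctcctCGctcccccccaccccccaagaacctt
Slc29a1: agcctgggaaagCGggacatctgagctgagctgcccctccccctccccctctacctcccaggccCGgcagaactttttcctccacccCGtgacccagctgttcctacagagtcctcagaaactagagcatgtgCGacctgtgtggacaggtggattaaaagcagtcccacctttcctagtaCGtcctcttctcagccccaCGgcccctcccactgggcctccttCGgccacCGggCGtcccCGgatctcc
Capn2: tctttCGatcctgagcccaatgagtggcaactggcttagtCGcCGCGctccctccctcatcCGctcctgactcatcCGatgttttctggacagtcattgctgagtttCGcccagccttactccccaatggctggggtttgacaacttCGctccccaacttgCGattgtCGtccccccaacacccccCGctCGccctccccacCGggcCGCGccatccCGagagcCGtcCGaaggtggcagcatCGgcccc

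The stretch upstream of Capn11 held 3 CG dinucleotides in 234 bases, against 10 in 250 bases for Slc29a1 and 19 in 250 bases for Capn2. In the full 300 bp promoter windows, which include bases after the start, Capn11 had 3 CG and the median over all 32851 windows was 7, with 31.4% of windows at or below the count of Capn11. An entry was found for 8 of the 9 members, and Capn5 had none. Capn3, the other member of very low level in WT, had windows with 6 and 4 CG. The most upstream windows of Capn2, Capn7, Capn10 and Capn15 held 27, 25, 21 and 22 CG, and those of Capn1 and Capns1 held 15 and 14. A low count was not particular to Capn11 even within the family, since a further start of Capn15 had 3 CG. Slc29a1 has several annotated starts, of which the most upstream is shown, and its windows held 3 to 30 CG.

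Capn11 RNA was scarce in WT cerebellum and several times higher in Kdm6b-cKO. WT 1 held 7 counts of it and WT 2 held 12, against 79 in cKO 1 and 65 in cKO 2. Scaled to depth these were 0.753 and 1.29 CPM in WT against 7.94 and 7.26 CPM in cKO. Both cKO libraries were thus above both WT libraries, and the cKO libraries lay close together. The mean level was 1.02 ± 0.381 CPM for WT and 7.60 ± 0.481 CPM for cKO (SD, n = 2 each), with a fitted log2 fold change of 2.88 (SE 0.37), or 7.36-fold. This was the 4th largest log2 fold change among 16617 genes tested, and 14 genes reached a log2 fold change of 2. The whole difference rests on 163 counts over the 4 libraries, so the WT level is imprecise: the log2 fold change was 2.55 without WT 1 and 3.32 without WT 2, and it was 2.81 and 2.94 without cKO 1 and cKO 2. The value without WT 1 compares libraries with the same sex pattern. Both WT levels were above 0.323 CPM, the level that 0 counts would still allow in these libraries (3 counts, counting error only).

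The classical calpain subunits were all detected in both genotypes, with fold changes far smaller than that of Capn11. Capn1, the catalytic subunit of mu-calpain (chromosome 19, 5988545 to 6015897), measured 25.2 and 25.6 CPM in WT mice versus 20.8 and 17.99 CPM in cKO mice. The cKO libraries were both below the WT libraries, with a log2 fold change of −0.39 (SE 0.14). Capn2, the catalytic subunit of m-calpain (chromosome 1, 182467260 to 182517608), measured 104 and 106 CPM in WT mice versus 110 and 104 CPM in cKO mice. Its groups overlapped, with a log2 fold change of 0.025 (SE 0.079). Capns1, the regulatory subunit that both enzymes share (chromosome 7, 30186936 to 30198811), measured 127 and 123 CPM in WT mice versus 116 and 106 CPM in cKO mice. It was somewhat lower in both cKO libraries, with a log2 fold change of −0.17 (SE 0.079). The sum of Capn1 and Capn2 was 129 and 132 CPM in WT and 131 and 122 CPM in cKO.

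Members that lack the usual domain layout of the classical enzymes showed small differences as well. Capn5 (chromosome 7, 98121559 to 98178274) measured 38.6 and 43.1 CPM in WT mice versus 44.0 and 43.5 CPM in cKO mice, just above WT in both libraries (log2 fold change 0.099, SE 0.11). Capn7 (chromosome 14, 31336638 to 31371986) measured 77.2 and 75.2 CPM in WT mice versus 80.1 and 76.0 CPM in cKO mice (0.035, SE 0.083). In Capn7 the groups overlapped, as they did in Capn10 and Capn15. Capn10, a gene known from genetic studies of type 2 diabetes (chromosome 1, 92934376 to 92947941), measured 32.4 and 38.0 CPM in WT mice versus 29.2 and 37.0 CPM in cKO mice (−0.094, SE 0.13). Its replicate 1 library was the lower one in each genotype. Capn15, the relative of the fly small optic lobes gene (chromosome 17, 25958364 to 25985796), measured 141 and 146 CPM in WT mice versus 160.1 and 136 CPM in cKO mice (0.046, SE 0.082). The cKO libraries of Capn15 lay on either side of WT.

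Capn3, the muscle calpain (chromosome 2, 120456019 to 120504913), had 7 and 7 counts in WT and 7 and 8 counts in cKO. It was the 1 member too low to be tested, and its level was 0.753 and 0.754 CPM in WT and 0.704 and 0.894 CPM in cKO. The groups of Capn3 overlapped. The filter asked for about 10 counts in 2 libraries, and Capn11 met it through its cKO libraries, since WT 1 was below that number.

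Of the 8 members tested, 1 (Capn11) passed the threshold of an edgeR adjusted p under 0.05 as higher and 0 as lower, where 4.04% of all tested genes passed, 1.87% as higher and 2.17% as lower. Since the family was picked through Capn11, nothing is read from this count. The 7 other tested members had log2 fold changes from −0.39 to 0.099 with standard errors from 0.079 to 0.14. Of these, 4 were above 0 and 3 below. The groups did not overlap in 4 of the 8, with Capn11 and Capn5 higher and Capn1 and Capns1 lower in cKO, and among all tested genes they did not overlap in 46.4%. The median log2 fold change of the 8 was 0.030, and that of all tested genes was 0.0036.

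**Figure D1:**
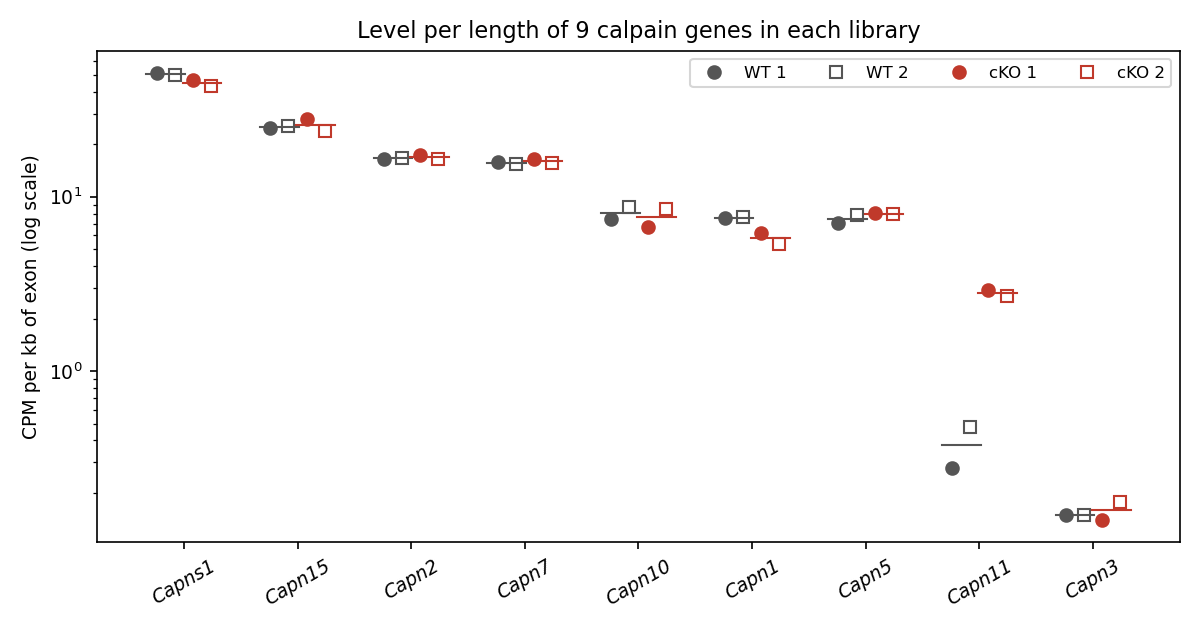
CPM per kb of exon (y axis, log scale) of the 9 calpain genes (x axis, ordered by the WT mean) in each library, with WT in grey and cKO in red, filled circles for replicate 1, open squares for replicate 2 and a short line at each group mean. Capn11 sits at 0.278 and 0.477 in WT and at 2.93 and 2.68 in cKO, while Capn3 stays below 0.2 in all libraries.

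Levels of different members were compared per kb of exon, since a longer gene collects more reads. In WT the order was Capns1 (50.4 ± 1.01 CPM per kb), Capn15 (25.1 ± 0.551), Capn2 (16.6 ± 0.265), Capn7 (15.6 ± 0.299), Capn10 (8.10 ± 0.917), Capn1 (7.60 ± 0.0968), Capn5 (7.45 ± 0.575), Capn11 (0.378 ± 0.141) and Capn3 (0.150 ± 1.14e-04), as mean ± SD over 2 libraries. Capn3 had 7 counts in each WT library, so its small SD leaves out the counting error. The libraries of Capn10 and Capn1, and those of Capn1 and Capn5, overlapped, so these neighbours in the order were not separated. In cKO the order at the top was the same, and the libraries of Capn2 and Capn7 and those of Capn5 and Capn10 overlapped. Capn11 measured 2.81 ± 0.178 CPM per kb in cKO and was the 8th of the 9 there too. The next member above it was Capn1, at 5.80 ± 0.597 CPM per kb in cKO. The summed level of all 9 members was 130.5 and 132 CPM per kb in WT and 133 and 123 CPM per kb in cKO, and Capn11 made up 0.213% and 0.361% of it in WT and 2.21% and 2.18% in cKO. Capn11 was thus a small part of the family sum in every library.

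**Figure D2:**
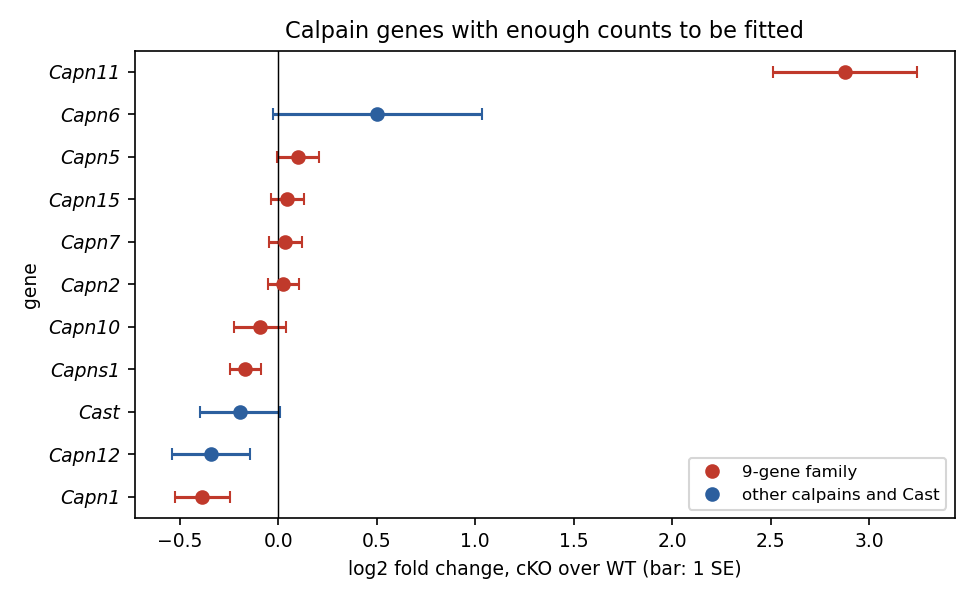
Log2 fold change of cKO over WT (x axis, bar of 1 SE) for the 8 members tested (red) and for Capn6, Capn12 and Cast (blue), ordered by value. Capn11 lies at 2.88, and the other 10 genes lie between −0.39 and 0.50.

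The remaining calpain genes had few counts or none at this depth, with the exception of Capn12. Capn12, a calpain known from skin, had the most counts of these 6 genes, with 10.8 and 13.9 CPM in WT mice versus 10.1 and 9.38 CPM in cKO mice. It did not pass (log2 fold change −0.34, SE 0.20, edgeR adjusted p = 0.427). Capn6, which lacks the catalytic cysteine, reached 16 counts in WT 1, 7 in WT 2, 12 in cKO 1 and 21 in cKO 2 (log2 fold change 0.50, SE 0.53, edgeR adjusted p = 0.712). Capn8 and Capn9, known from the digestive tract, had 0 counts in all libraries and 3 counts in WT 2 alone, respectively. Capn13 had 1 count in WT 1 alone, and Capns2, a further small subunit gene, had 2 counts in WT 2 and 3 in cKO 1. For a library with 0 counts the level could be up to 0.302 to 0.335 CPM, the value of 3 counts. Cast, the inhibitor, measured 16.4 and 11.1 CPM in WT mice versus 10.8 and 13.3 CPM in cKO mice. Its groups overlapped (log2 fold change −0.19, SE 0.20, edgeR adjusted p = 0.708), and without WT 1 its log2 fold change changed sign, to 0.11.

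Of 26 genes for proteins that classical calpains cut, 3 rose in Kdm6b-cKO, 0 fell and 23 did not pass, a share of calls to be read against the 4.04% of all tested genes. The median log2 fold change was 0.095, with 17 genes above 0 and 9 below, and the groups did not overlap in 15, where they did not overlap in 46.4% of all tested genes. Ezr, which encodes ezrin, a linker between membrane and actin, measured 27.7 and 27.6 CPM in WT mice versus 42.2 and 55.9 CPM in cKO mice (log2 fold change 0.83, SE 0.13, edgeR adjusted p = 5.56e-04). Flna, which encodes the actin crosslinker filamin A, measured 235 and 199 CPM in WT mice versus 308 and 301 CPM in cKO mice (0.49, SE 0.076, edgeR adjusted p = 5.68e-04). Dpysl2, which encodes a collapsin response mediator protein of growing axons, measured 144 and 137 CPM in WT mice versus 202 and 175 CPM in cKO mice (0.43, SE 0.080, edgeR adjusted p = 0.00298). All 3 were above WT in both cKO libraries. These values are RNA levels and do not measure cleavage of the proteins by any calpain. Sptan1, the brain spectrin gene whose product is the best known calpain substrate, measured 1845 and 1771 CPM in WT mice versus 1777 and 1662 CPM in cKO mice (−0.072, SE 0.065, edgeR adjusted p = 0.650). Mapt, which encodes tau, measured 550 and 562 CPM in WT mice versus 645 and 639 CPM in cKO mice (0.21, SE 0.068, edgeR adjusted p = 0.101). The calls for Ezr, Flna and Dpysl2 held without WT 1 or WT 2, and were lost without cKO 1 (edgeR adjusted p = 0.237, 0.319 and 0.288) or cKO 2 (0.493 for each). In edgeR 0 genes passed in the fits without cKO 1 or cKO 2 (2315 and 1718 at an unadjusted p under 0.05), so the calls of single genes cannot be compared there. The log2 fold changes in these fits were 1.02 and 0.61 for Ezr, 0.47 and 0.51 for Flna, and 0.32 and 0.53 for Dpysl2.

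**Figure D3:**
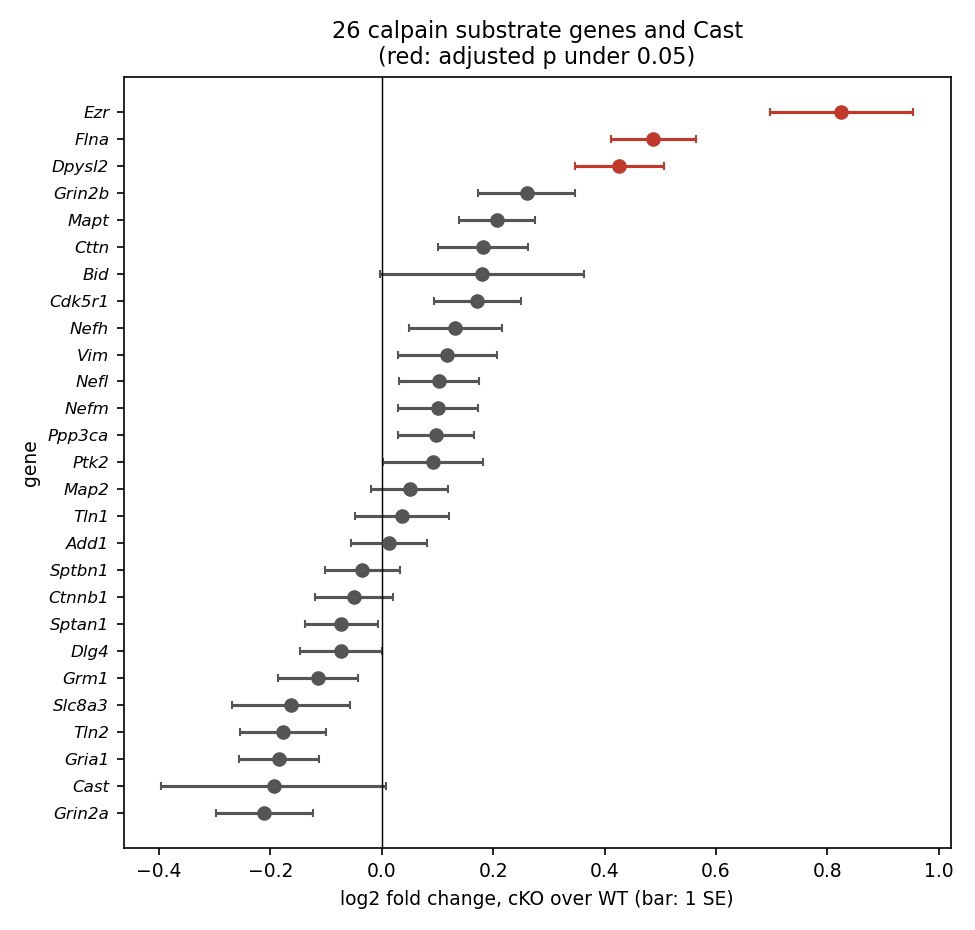
Log2 fold change of cKO over WT (x axis, bar of 1 SE) of 26 genes for calpain substrates and of the inhibitor gene Cast, ordered by value, with genes of adjusted p under 0.05 in red. Ezr, Flna and Dpysl2 lie between 0.43 and 0.83, and Sptan1 at −0.072.

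A gene near Capn11 was also higher in Kdm6b-cKO cerebellum. Slc29a1, which encodes the equilibrative nucleoside transporter ENT1, lies on the same strand of chromosome 17, from 45585200 to 45599606, and ends 30597 bp before the Capn11 gene body begins. Since both genes are read towards lower coordinates, Slc29a1 is downstream of Capn11. Slc29a1 measured 55.7 and 58.6 CPM in WT mice versus 85.5 and 98.2 CPM in cKO mice. Both cKO libraries were above both WT libraries, with a log2 fold change of 0.68 (SE 0.090, 1.61-fold) and an edgeR adjusted p of 8.72e-05. This test did not enter the choice of the family, but the tests were chosen with earlier results of these data known. Without WT 1 the log2 fold change was 0.65 (edgeR adjusted p = 3.49e-05), and in the fits without cKO 1 or cKO 2 it was 0.78 and 0.58, where the call was lost (edgeR adjusted p = 0.237 and 0.493) as for all genes. On the opposite strand, the antisense gene Gm17080 shares 275 of its 811 exon bp with Slc29a1. It measured 28.9 and 26.4 CPM in WT mice versus 32.2 and 42.3 CPM in cKO mice (0.43, SE 0.13, edgeR adjusted p = 0.0829), and reads of the shared part cannot be told apart without strand.

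Around Capn11, 31 annotated genes start within 500 kb of its start, and 18 of them were tested. Of these only Slc29a1 passed, a share of 5.56% against 4.04% of all genes. The 18 log2 fold changes ran from −0.098 to 0.68 with a median of 0.12. The groups did not overlap in 9, all higher in cKO, where 23.2% of all tested genes were higher without overlap. Tmem63b, the next gene upstream, encodes a mechanosensitive cation channel. It lies on the same strand, from 45660171 to 45686905, so its body ends close to the Capn11 start at 45659325. Tmem63b measured 158 and 169 CPM in WT mice versus 200 and 185 CPM in cKO mice (0.24, SE 0.074, edgeR adjusted p = 0.0791). Gm16172, antisense to Tmem63b and the gene with the nearest start, at 4.19 kb, measured 49.8 and 51.9 CPM in WT mice versus 52.5 and 43.8 CPM in cKO mice (−0.077, SE 0.11, edgeR adjusted p = 0.794). Mymx, a muscle fusion gene between Slc29a1 and Capn11, had 0 counts in all 4 libraries. Hsp90ab1, the heat shock protein gene beyond Slc29a1, measured 1160 and 1242 CPM in WT mice versus 1255 and 1356 CPM in cKO mice (0.12, SE 0.069, edgeR adjusted p = 0.416). Further genes on the downstream side were Slc35b2 (0.034), Nfkbie (0.25), Tmem151b (−0.031), Tcte1 (−0.098), Aars2 (0.29), Spats1 (−0.080), Cdc5l (0.025) and B230354K17Rik (0.11), as log2 fold changes. On the upstream side they were Mrpl14 (0.40), Vegfa (−0.094), Mrps18a (0.21), Rsph9 (0.46) and Mad2l1bp (0.098). None of these passed, with standard errors of 0.48 for Rsph9, 0.32 for Mad2l1bp and 0.076 to 0.21 for the rest.

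**Figure D4:**
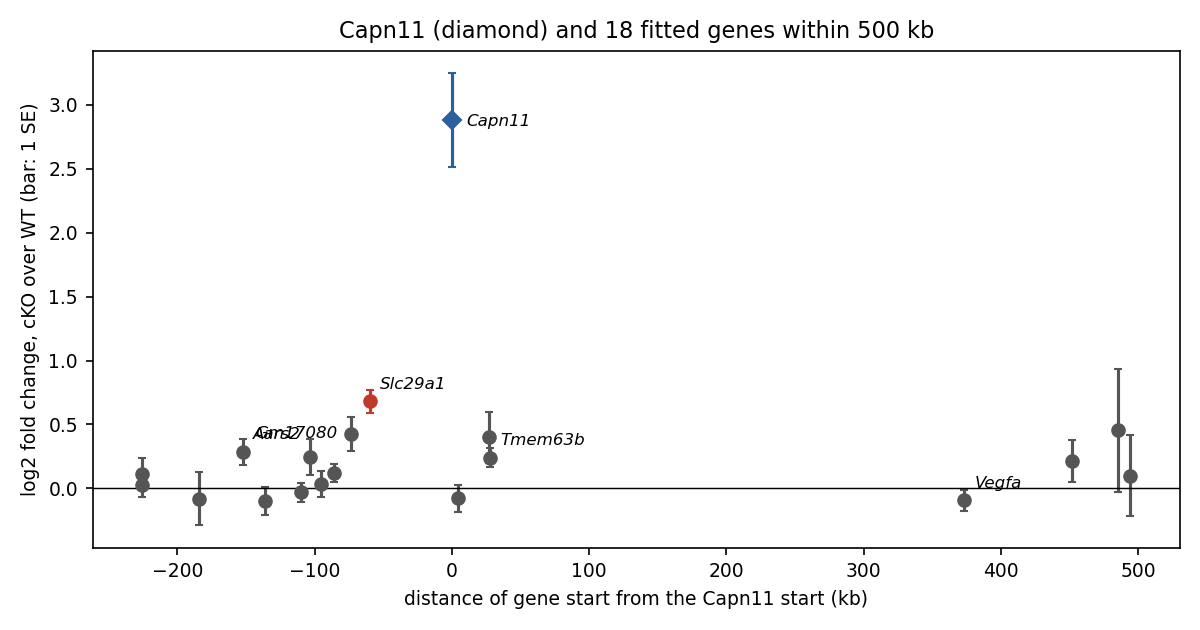
Log2 fold change of cKO over WT (y axis, bar of 1 SE) against the distance of each gene's start from the start of Capn11 (x axis, kb, negative on the downstream side), for Capn11 (blue diamond) and the 18 tested genes within 500 kb, with the gene of adjusted p under 0.05 in red. Slc29a1 lies at 0.68 and its antisense gene Gm17080 at 0.43.

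The surroundings of the other members were examined in the same way. Within 500 kb, 2 of 9 tested genes passed near Capn2 (Enah and Trp53bp2), 2 of 40 near Capn1, 1 of 19 near Capn3, 1 of 21 near Capn7, 1 of 38 near Capn15 and 1 of 44 near Capns1, and 0 of 9 and 0 of 15 near Capn5 and Capn10. These counts stand beside the 4.04% of all tested genes that passed. The median log2 fold change of the tested genes was 0.12 near Capn11 and ran from −0.045 to 0.10 near the other members. Near Capn11, 9 of 18 tested genes were higher without overlap of the groups and 0 were lower. The higher and lower counts were 8 and 12 of 40 near Capn1 and 2 and 3 of 9 near Capn2. They were 8 and 6 of 19 near Capn3, 0 and 3 of 9 near Capn5 and 5 and 5 of 21 near Capn7. Near Capn10 they were 6 and 1 of 15, near Capn15 5 and 11 of 38, and near Capns1 4 and 10 of 44. Among all tested genes the groups did not overlap in 46.4%, with 23.2% higher in cKO. These differences between neighbourhoods were not tested.

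The genes most like Capn11 in pattern over the 4 libraries were poorly characterised transcripts and Htr2c. Likeness was measured as the distance between log2 CPM values centred on the WT mean, and it is a description over 4 libraries of genes that share the same contrast. The nearest was Gm9959 (distance 0.802), with 0.108 and 0.431 CPM in WT mice versus 1.61 and 2.46 CPM in cKO mice. It was followed by 2210008F06Rik (1.18), Map2k3os (1.20) and B130024G19Rik (1.40), with cKO levels from 1.21 to 3.62 CPM. The fifth was Htr2c (1.43), which encodes a serotonin receptor abundant in the choroid plexus, with 3.77 and 2.48 CPM in WT mice versus 14.8 and 9.94 CPM in cKO mice. All 5 had both cKO libraries above both WT libraries, as did 23.2% of all tested genes. Since the 5 were picked for likeness to Capn11 over these same libraries, nothing is read from this. In WT Gm9959 had 1 and 4 counts and Map2k3os had 2 and 1.

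**Figure D5:**
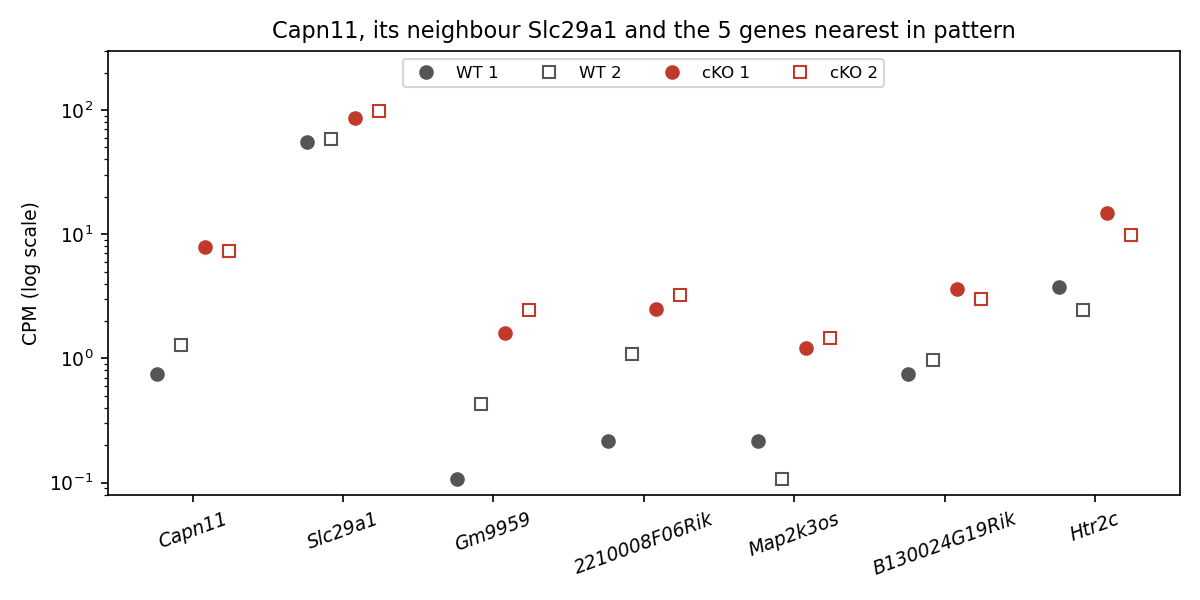
CPM (y axis, log scale) of Capn11, Slc29a1 and the 5 genes nearest to Capn11 in pattern (x axis) in each library, with WT in grey and cKO in red, filled circles for replicate 1 and open squares for replicate 2. In each gene both cKO libraries lie above both WT libraries, which for the 5 genes follows from their choice by likeness. Capn11 lies at 0.753 and 1.29 CPM in WT against 7.94 and 7.26 CPM in cKO.

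Testis is the tissue where Capn11 is best known, so other genes of sperm formation were examined beside it. Of 23 testis and germ cell genes, 6 were tested and 0 passed in either direction, beside 4.04% of all tested genes, and the list's summed level was 64.1 and 61.0 CPM in WT and 53.7 and 54.1 CPM in cKO. The smallest p among them was that of Gapdhs, the sperm form of a glycolytic enzyme (log2 fold change −0.34, SE 0.16, edgeR adjusted p = 0.303). Among the other 17, Tnp1, which encodes a transition protein of sperm chromatin, and Odf1, Akap4, Ldhc, Pgk2, Acrv1, Crisp2 and Smcp were at 0 counts in all 4 libraries. Of 17 skeletal muscle genes, which belong to the tissue of Capn3, 7 were tested, 0 rose and 3 fell, where 1.87% of all tested genes rose and 2.17% fell. Among those too low to be tested, Mylpf had 0 and 1 counts in WT and 5 and 7 in cKO, and Tnnt3 had 1 and 1 counts in WT and 7 and 5 in cKO. Mybpc1, a gene for a myosin-binding protein, measured 109 and 101 CPM in WT mice versus 55.5 and 46.2 CPM in cKO mice (−1.04, SE 0.094, edgeR adjusted p = 5.05e-07). The other 2 were Tnnc2 (−2.95, SE 0.62, edgeR adjusted p = 0.00744) and Sln (−2.81, SE 0.63, edgeR adjusted p = 0.0116), both with 28 counts or fewer in each library. The Tnnc2 call was lost without WT 2 (edgeR adjusted p = 0.0616) and the Sln call without WT 1 (0.351), and with no filter on low counts both were lost (0.0550 and 0.0668). The Mybpc1 call was lost only without a cKO library (edgeR adjusted p = 0.237 and 0.493), as were those of all genes.

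Markers of other cell types moved with genotype beside Capn11, and their counts stand beside 1.87% of all tested genes that were higher and 2.17% that were lower. The 5 newborn neuron markers summed to 599 and 665 CPM in WT and to 862 and 1198 CPM in cKO, with 4 of 5 higher (Dcx, Sox11, Cd24a and Tubb2b), and the 5 precursor markers to 97.6 and 117 CPM against 145 and 213 CPM, with 2 of 4 tested genes higher (Ccnd2 and Barhl1). Both sums were highest in cKO 2. The remaining precursor markers did not share a clear rise. Mycn had overlapping groups (log2 fold change 0.31, SE 0.19). Gli1 was slightly lower in both cKO libraries (−0.084, SE 0.15). Atoh1, too low to be tested, had 4 and 7 counts in WT and 5 and 18 counts in cKO. Capn11 measured 7.94 CPM in cKO 1 and 7.26 CPM in cKO 2, on 79 and 65 counts. The 7 choroid plexus markers summed to 34.3 and 37.1 CPM in WT and to 689 and 41.8 CPM in cKO, with 2 of 4 tested genes higher (Ttr and Kl) and Kcne2 at 0 in WT 2 and cKO 2. In cKO 2 Ttr measured 13.9 CPM, above its WT levels of 1.72 and 0.108 CPM. The other markers were near or below their WT levels in cKO 2. Kl was at 1.68 CPM there against 0.646 and 1.51 CPM in WT. Clic6 was at 6.03 CPM against 8.39 and 7.97 CPM, and Otx2 at 19.8 CPM against 23.0 and 27.1 CPM. Folr1 had 3 counts in cKO 2 against 3 and 2 in WT, and Aqp1 had 1 count against 1 and 1. Genes that passed as lower were Gabra6, Cbln3 and Slc17a7 (3 of 7 granule neuron markers), Ppp1r17 (1 of 5 Purkinje cell markers) and Slc1a3 and Gdf10 (2 of 5 astroglia markers). In these 3 lists 0 passed as higher. The log2 fold change was nevertheless above 0 in 3 of 7 granule neuron, 1 of 5 Purkinje cell and 3 of 5 astroglia markers. Of the microglia and endothelial markers, 0 of 4 tested genes passed in each list. Granule neuron markers summed to 5837 and 6161 CPM in WT and to 5780 and 5424 CPM in cKO. Purkinje cell sums were 5069 and 5002 CPM in WT and 4674 and 4352 CPM in cKO. Astroglia sums were 2982 and 2999 CPM in WT and 2670 and 2648 CPM in cKO. Microglia sums were 76.4 and 70.8 CPM in WT and 71.7 and 81.1 CPM in cKO. Endothelial sums were 137.9 and 141.2 CPM in WT and 144.6 and 145.3 CPM in cKO. The part of newborn neurons, precursors and choroid plexus in the rise of Capn11 was not tested.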

How the data were processed

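RNA of whole cerebellum was poly(A)-enriched and sequenced as 150 bp pairs. Per the study's methods and the submitters' processing notes, the authors used Trimmomatic 0.38 for trimming, STAR 2.7.2b for alignment to mm10 (GRCm38) and HTSeq for counts over exons. The deposited values were raw counts per gene symbol. All 55341 symbols matched GENCODE M21. The 5 totals that name no gene were set aside, so that 39.0% to 40.5% of the deposited entries, those in genes, were used.

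Groups and replicate numbers followed the sample titles, although the descriptions of the replicate 2 samples name replicate 1. Libraries of a group were not copies of each other (chi-square over degrees of freedom, 3.56 for WT and 3.99 for cKO). In R 4.3.3 with edgeR 4.0.16, genes were kept by filterByExpr (minimum count 10), scaled by TMM and tested with glmQLFit and glmQLFTest (two-sided), with Benjamini-Hochberg adjustment over 16617 genes and a threshold of 0.05. The common dispersion was 0.00537. Standard errors were the absolute log2 fold change over the root of the F value. The script was tested on simulated data. limma 3.58.1 (voom) and DESeq2 1.42.0 were alternatives, beside other scalings and filters, a replicate block and leaving out each library.

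The family, the gene lists and the tests were chosen with earlier results of these data known. Named genes were the 9 members, the other calpains, Cast, Kdm6b, tested genes within 500 kb of Capn11, up to 5 passing genes per list, and the 5 genes nearest in pattern. Xist, Ddx3y, Sptan1, Mapt, Mymx, Mylpf, Tnnt3, Kcne2, Enah, Trp53bp2 and the testis genes at 0 were added after their values were seen. The same holds for Mycn, Gli1 and Atoh1. The oligodendrocyte marker list is not reported here.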

Additional observations from a re-analysis of the deposited data

How the results depend on the processing

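Leaving out 1 library at a time gave a log2 fold change of Capn11 of 2.55 to 3.32, 0 to 507 genes past the threshold, 0 to 1 calpain members, 0 to 3 substrates and 0 to 1 neighbours of Capn11. Without WT 1 and WT 2, 368 and 507 genes passed. Without cKO 1 or cKO 2, 0 passed in edgeR (2315 and 1718 at an unadjusted p under 0.05), and the log2 fold change of Capn11 was 2.81 and 2.94. In these fits the lone library of a group was taken to vary as the other group does. Some members with differences near 0 changed sign over these fits: Capn2 ran from −0.019 to 0.070, Capn7 from −0.0035 to 0.074, Capn10 from −0.27 to 0.072, Capn15 from −0.075 to 0.16 and Cast from −0.45 to 0.11.

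Over all genes, 671 passed, 177 with no filter on low counts, 320 in DESeq2 and 1130 with a replicate block. The cause was not tested. Of the 671 calls 53.8% were lower in cKO, and with library size alone 39.9% of 724 were. DESeq2 gave no adjusted p for Capn11, so 0 members passed there, with 1 at an unadjusted p under 0.05. Of the neighbours of Capn11, 2 passed with library size alone (Slc29a1 and Tmem63b) and 3 with the replicate block (Gm17080 also). Ezr, Flna, Dpysl2 and Slc29a1 passed in every fit but those without a cKO library. The Kdm6b call was lost with no filter (edgeR adjusted p = 0.0722) and without any 1 library. Same-numbered libraries did not deviate together over the tested genes (correlation 0.043). With 2 libraries per group, this cannot tell whether the samples were paired. The WT level of Capn11 rests on 19 counts, which limits the precision of its fold change. Its direction was the ground on which the family was chosen, so nothing is read from it.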
